A study of Mus musculus with 10 samples.

Results

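Introns that the RefSeq annotation lists both as spliced out and as kept inside an exon were followed in short-read RNA-seq of mature thymocytes of the CD8 and the CD4 lineage. An intron was taken where a RefSeq transcript removed it and an exon of another RefSeq transcript on the same strand held it and reached 10 or more bases past both of its ends. There were 363 such introns. Of these, 201 in 166 genes had transcripts of both forms summing to 1 FPKM or more (fragments per kilobase of transcript, scaled to the size of the library) in both lineages, and they are described here. The measure is the percent spliced in (PSI), which here is the percent of that summed FPKM carried by the retained form. The introns were chosen by their summed FPKM in both lineages, and the difference in PSI between the lineages had no part in it.

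Intron retention leaves an intron in a polyadenylated transcript that other copies of the same gene remove. In coding sequence a retained intron often brings a stop codon that sends the transcript to nonsense-mediated decay or keeps it in the nucleus, while in a UTR it changes the leader or the tail around an intact reading frame. Some annotated introns lie wholly inside a protein-coding exon, so that retention adds amino acids rather than ending the protein. T cells are known to use retention to hold back mature mRNA of splicing factors and of genes needed upon activation.

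CD8 single-positive (CD8SP) and CD4 single-positive (CD4SP) thymocytes have passed selection in the thymus and belong to the cytotoxic and the helper lineage. Both came from C57BL/6 mice aged 6 to 8 weeks with no genetic change or treatment named. For each sample, 2 to 3 thymi were pooled, magnetic beads took out cells bearing CD4 (for CD8SP) or CD8 (for CD4SP), and a cell sorter kept TCRβ+ CD24- cells that were CD8+ CD4- for CD8SP and CD4+ CD8- for CD4SP. Ribosomal RNA was removed before paired-end libraries were built. Whether RNA not yet fully spliced adds to the retained forms was not tested. The 4 short-read samples of each lineage differ in their labels only by lane and are merged in 1 file, so every value below is 1 pooled value per lineage, no test between lineages is possible, and no p-value is given. The range printed after a PSI comes from the FPKM intervals in the deposited files and covers the estimate of that pooled value, not the spread between mice. Read numbers are not given in the sources used.

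The sequences of the introns that the results below turn on come first, read from GENCODE M21 transcripts on GRCm38 and printed 5′ to 3′. The 3 introns printed whole lie inside a coding exon of a GENCODE transcript, hold no in-frame stop codon and have lengths divisible by 3. Capitals mark their first and last pair of bases, GT and AG. Vav1 is at chr17:57279285-57279356 on the plus strand, Fxr1 at chr3:34058082-34058168 on the plus strand and Hnrnpm at chr17:33666530-33666646 on the minus strand.
Vav1: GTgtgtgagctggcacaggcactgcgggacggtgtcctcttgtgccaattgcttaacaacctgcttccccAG
Fxr1: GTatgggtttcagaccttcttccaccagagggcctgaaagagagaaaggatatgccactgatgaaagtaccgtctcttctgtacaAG
Hnrnpm: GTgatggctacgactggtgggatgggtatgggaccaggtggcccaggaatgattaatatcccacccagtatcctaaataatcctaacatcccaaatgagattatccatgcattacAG

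For 9 longer or UTR introns the splice sites are printed, to show how far their 5′ sites lie from the consensus CAGGTAAGT. In each 5′ site, capitals mark the last 3 exon bases and the first 6 intron bases, and in each 3′ site the closing AG of the intron.
Men1, 362 bases, 5′ site: gcgGAGGTGGGCgcgggg
Men1, 374 bases, 5′ site: tggGATGTAAGCgcggag
Men1, shared 3′ site: ccctcggctcgcccgcAGgcc
Gimap4, 5′ site: ggaACAGTATCCttgggg
Gimap4, 3′ site: ctcctaaattctttcaAGagg
Zfp207, 5′ site: taaTAGGTTTGGagatta
Zfp207, 3′ site: ttttcatgtttcatctAGgtt
Ttc14, 5′ site: gaaAAGGTAAACtataat
Ttc14, 3′ site: ccaactaatttttttaAGgct
Clk1, 387 bases, 5′ site: caaGATGTATAGaatatt
Clk1, 387 bases, 3′ site: attattcctcttttttAGatg
Pdcd4, 5′ site: tcaACTGTAAGAgttgtc
Pdcd4, 3′ site: actttttcatctttccAGgga
Hspa5, 5′ site: tgtGAGGTAAGCgccgcg
Hspa5, 3′ site: ggcccctgtcgccctcAGacc
Rsrc2, 5′ site: tagGAGGTACGTatcttt
Rsrc2, 3′ site: ttacattgtctttgatAGatt

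Both Men1 introns end at the same 3′ site and begin 12 bases apart. The 5′ site of Hspa5 matched 7 of the 9 consensus bases, that of Rsrc2 also 7, and that of Gimap4 3 of 9. Over the 176 introns of 60 or more bases with GT and AG ends and flanking sequence, the 5′ site matched a median of 6 and a mean of 5.75 of 9 bases. In 174 other introns of the same genes that some GENCODE exon also holds, the median was 6 and the mean 6.25. Of the annotated retained introns, 80.7% matched 6 bases or fewer, against 62.6% of those other introns. The 20 bases that stop 3 bases short of the 3′ end were 70% pyrimidine at the median in both sets.

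The 201 introns were short beside the other introns of their genes. Their median length was 269 bases, with a range of 11 to 6792, against 909 bases for 1691 other introns of the same genes. Of the retained introns 40.3% were up to 200 bases long, and of the other introns 20.9%. The median GC content was 54.1% in the 193 whose sequence could be read, against 52.7% in the 177 other introns with a sequence. Those 177 are introns that some GENCODE exon also holds, so the GC content of most of the 1691 was not measured. Of the 193, 179 had GT and AG ends, 5 had GC and AG, and 9 had other ends.

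The 9 with other ends were all among the 11 introns under 60 bases. Those 9 included 2 gaps of 11 and 12 bases in the MHC class I gene H2-T10, 1 of 12 bases in H2-D1 and 1 of 18 bases in Hnrnpa3, a splicing regulator. Their PSI was 100% in both lineages. The 26-base intron of Xbp1, picked out after its values were seen, is not a spliceosomal intron: the stress sensor IRE1 cuts it out in the cytoplasm, and its removal gives the active transcription factor. It lies at chr11:5524282-5524307 on the plus strand, and capitals mark its outer bases.
Xbp1: CActcagactatgtgcacctctgcAG
The retained form of Xbp1 was at 6.13 FPKM in CD8SP and 7.11 FPKM in CD4SP. The spliced form was listed at 0 in both, so its PSI was 100% in both lineages. The 9 introns with other ends had a median PSI of 100% in both lineages. Whether the processing can count the removal of so short an intron was not tested. The 0 is therefore not read as a lack of Xbp1 splicing in these cells.

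By the GENCODE transcript that removes the intron, 103 of the 201 lay in coding sequence, 57 in a 5′ UTR, 24 in a 3′ UTR and 4 in a non-coding transcript, and 13 are not spliced in any GENCODE transcript. Among 100 coding introns with a sequence, 73 held an in-frame stop codon, which began at a median of base 25 of the intron and within the first 60 bases in 51. A further 24 held no stop and kept the frame, and 3 held none and shifted it. The 24 had a median length of 130.5 bases, against 620 bases for the 73 with a stop.

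The median intron was retained more often than spliced in both lineages, with a PSI of 65.7% in CD8SP and 65.4% in CD4SP, while 67 introns in CD8SP and 73 in CD4SP were under 50%. When every overlapping intron counted as spliced, the median over 209 introns was 50.8% in CD8SP and 44.9% in CD4SP, so there the statement does not hold for CD4SP. The middle part of the set, from the lower to the upper quartile, ran from 40.1% to 91.0% in CD8SP and from 34.3% to 91.6% in CD4SP. In 32 introns of CD8SP and 28 of CD4SP the retained form alone was above 0, and in 6 of CD8SP and 9 of CD4SP the spliced form alone. The median PSI of 1006 annotated cassette exons measured the same way was 44.8% in CD8SP and 43.6% in CD4SP. Among 40058 retained introns of which either form may be assembled from the reads, it was 8.34% in CD8SP and 11.6% in CD4SP.

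The lineages were close to each other over the set. The median difference, CD8SP minus CD4SP, was 0 points and the median absolute difference 6.78 points. The introns split evenly, with 90 higher in CD8SP, 87 higher in CD4SP and 24 equal. Pearson's r between the lineages was 0.839 across the 201 introns, which share libraries and in part genes and transcripts. It was 0.897 across the cassette exons.

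A difference of 20 points or more was taken as a call. It was met by 33 introns, 16.4% of the 201. Of these 19 were higher in CD8SP, 9.45%, and 14 were higher in CD4SP, 6.97%. The share among annotated cassette exons was 16.1% (8.85% higher in CD8SP, 7.26% higher in CD4SP), and among all retained introns with assembled forms 23.5% (9.63% higher in CD8SP, 13.8% higher in CD4SP). The share of annotated retained introns past 20 points was thus close to that of cassette exons. The PSI ranges of the lineages stood apart in 30 of the 33 called introns and in 56 of the 168 others, so a range that stands apart is common here and does not by itself mark a large difference.

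**Figure D1:**
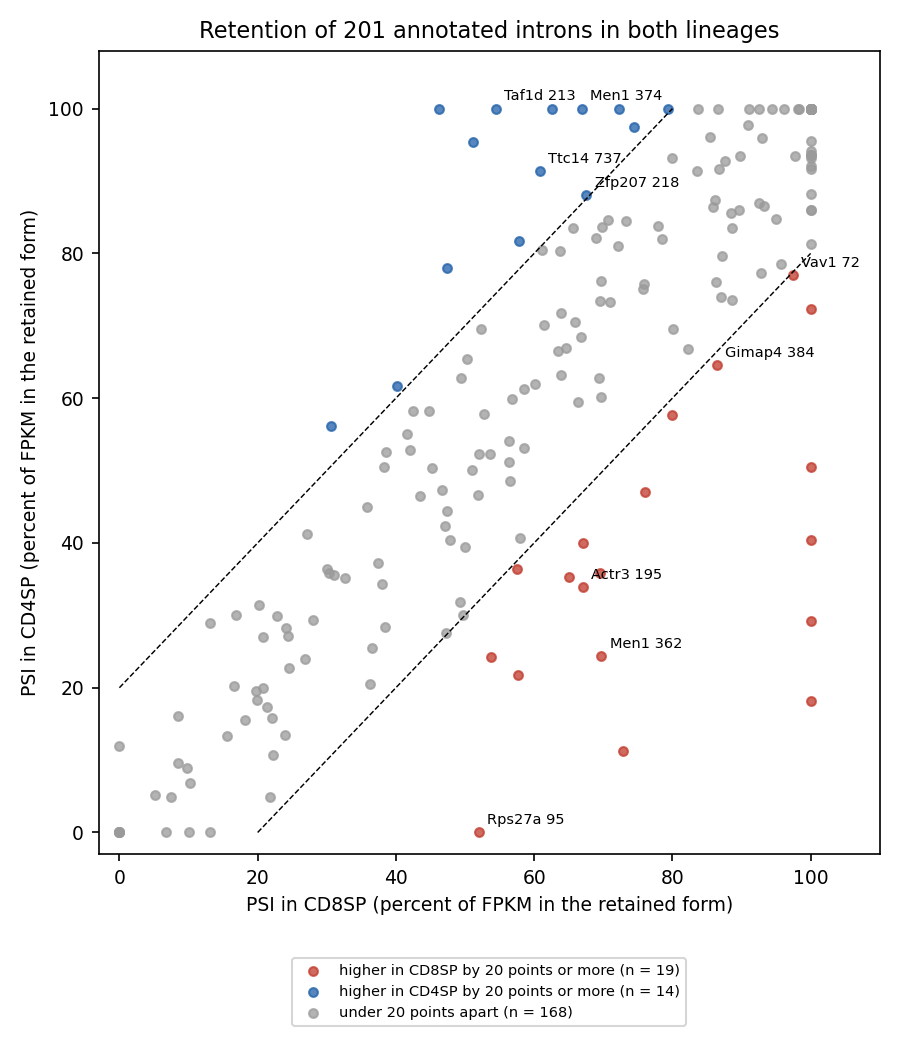
PSI of each of the 201 annotated retained introns, in percent, in CD8SP (x axis) and CD4SP (y axis), with 1 point per intron. Red points (n = 19) are 20 or more points higher in CD8SP, blue points (n = 14) are 20 or more points higher in CD4SP, and dashed lines mark 20 points. Most points lie between the lines (n = 168), and labels give host gene and intron length in bases.

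The calls leaned on weakly expressed transcripts and on assembled ones. Where the lower of the 2 summed FPKM values was between 1 and 2, 37.5% of 32 introns were called. The share was 17.4% of 69 introns between 2 and 5 FPKM, 5.56% of 72 between 5 and 20, and 17.9% of 28 at 20 or more. With PSI taken from RefSeq transcripts only, 36 of 169 introns were called, and 11 of the 33 were among them, 10 of those in the same direction. Another 12 of the 33 were measured there and not called, and 10 fell under the FPKM minimum. The sign was the opposite in 3 of the 23 measured there, those of Vav1, Ttc14 and the 823-base intron of Nipa2. With every overlapping intron counted as spliced, 18 of the 33 calls were kept and 11 were lost, and 4 took the opposite sign. An FPKM of exactly 0 can also be a failed estimate, and 12 of the 33 calls had a form listed at 0 in 1 lineage.

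Among well measured introns higher in CD8SP, the rule for naming (both forms above 0 and 5 FPKM or more in both lineages) gave 4 genes. Actr3 encodes Arp3, a core subunit of the Arp2/3 complex that branches actin filaments. Its first intron, in the 5′ UTR at chr1:125435458-125435652 on the minus strand, had 38.2 FPKM retained and 18.8 FPKM spliced in CD8SP, against 15.6 and 30.5 FPKM in CD4SP. Its PSI was 67.0% (64.8 to 69.4) in CD8SP and 33.9% (31.4 to 36.3) in CD4SP. The retained form was thus the larger in CD8SP and the smaller in CD4SP, and the 2 forms moved in opposite directions, by 1.28 for the retained and -0.70 for the spliced form on the log2(FPKM + 0.1) scale. Across the 8320 genes at 1 FPKM or more in either lineage that scale was centred at 0.31 in favour of CD8SP.

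A second 5′ site shortens the same Actr3 intron to 192 bases, where PSI was 79.9% in CD8SP and 57.6% in CD4SP. Both lengths share their retained transcripts, so they are not independent. Counting every overlapping intron as spliced gave 57.4% in CD8SP and 27.1% in CD4SP for both. On RefSeq transcripts only, the 195-base intron had a PSI of 74.1% in CD8SP and 23.7% in CD4SP, a difference of 50.4 points, and the 192-base intron had no spliced FPKM in either lineage.

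Men1 encodes menin, a scaffold of histone methyltransferase complexes. Its first intron of 362 bases at chr19:6335083-6335444 on the plus strand had 5.43 FPKM retained and 2.36 FPKM spliced in CD8SP, against 1.26 and 3.92 FPKM in CD4SP. PSI was 69.7% (65.2 to 73.9) in CD8SP and 24.4% (18.5 to 30.6) in CD4SP. The 374-base version at chr19:6335071-6335444, which starts at the upstream 5′ site shown above, went the other way, with 66.9% in CD8SP and 100% in CD4SP. Its retained FPKM is the same, its spliced form was at 2.68 FPKM in CD8SP, and it was listed at 0 in CD4SP. When either splice site counted as removal, PSI was 51.9% in CD8SP and 24.4% in CD4SP, so the gene as a whole was higher in CD8SP. On RefSeq transcripts only, the 362-base intron was at 69.7% in CD8SP and 40.6% in CD4SP. For both lengths, the annotated retaining exon does not share both outer ends with the exons around the intron.

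Gimap4 encodes a GTPase of lymphocytes that is made in T cells. Its 384-base intron at chr6:48690458-48690841 on the plus strand lies inside coding sequence, holds no in-frame stop and keeps the frame. It had 112 FPKM retained and 17.7 FPKM spliced in CD8SP, against 160 and 87.5 FPKM in CD4SP, which made it one of the most abundant introns of the set. PSI was 86.4% (84.8 to 87.7) in CD8SP and 64.6% (62.1 to 67.4) in CD4SP. Both forms were lower in CD8SP, the spliced form by far the more, with log2 ratios of -0.51 for the retained and -2.30 for the spliced form. All of its FPKM came from RefSeq transcripts, so the RefSeq-only difference was the same 21.8 points. The other 3 annotated retained introns of Gimap4 overlap or follow this one and were at 100% in CD8SP and between 91.6% and 100% in CD4SP.

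Vav1, a guanine nucleotide exchange factor that signals downstream of the T cell receptor, had its 72-base intron almost fully retained in CD8SP. The retained form was at 26.9 FPKM and the spliced form at 0.698 FPKM in CD8SP, against 16.9 and 5.03 FPKM in CD4SP. PSI was 97.5% (96.5 to 98.2) in CD8SP and 77.0% (73.9 to 80.3) in CD4SP. RefSeq transcripts carried 60.8% of this FPKM in CD8SP and 64.1% in CD4SP. With those alone the difference turned round, to 95.8% in CD8SP and 100% in CD4SP, so the call rests on assembled transcripts.

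In the other direction the same rule gave 2 genes, Zfp207 and Ttc14. In both, the annotated retaining exon does not share both outer ends with the exons around the spliced intron. Their annotated forms thus differ in more than the intron. Zfp207 encodes a zinc finger protein that helps chromosomes attach to the spindle. Its 218-base intron at chr11:80395574-80395791 on the plus strand, placed in a 3′ UTR, had 48.3 FPKM retained and 23.2 FPKM spliced in CD8SP, against 47.0 and 6.37 FPKM in CD4SP. PSI was 67.5% (65.8 to 69.4) in CD8SP and 88.1% (86.8 to 89.4) in CD4SP. The retained form was level between the lineages, with a log2 ratio of 0.04, while the spliced form was higher in CD8SP by 1.85. On RefSeq transcripts only, PSI was 79.8% in CD8SP and 85.6% in CD4SP, under the 20 points of a call.

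Ttc14 encodes a protein with tetratricopeptide repeats. Its 737-base intron at chr3:33807949-33808685 on the plus strand opens with an in-frame stop at base 2. It had 12.1 FPKM retained and 7.82 FPKM spliced in CD8SP, against 13.4 and 1.27 FPKM in CD4SP. PSI was 60.8% (49.8 to 70.1) in CD8SP and 91.4% (90.1 to 92.7) in CD4SP. On RefSeq transcripts only it was 84.0% in CD8SP and 83.8% in CD4SP, so here too the difference lies in assembled transcripts.

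**Figure D2:**
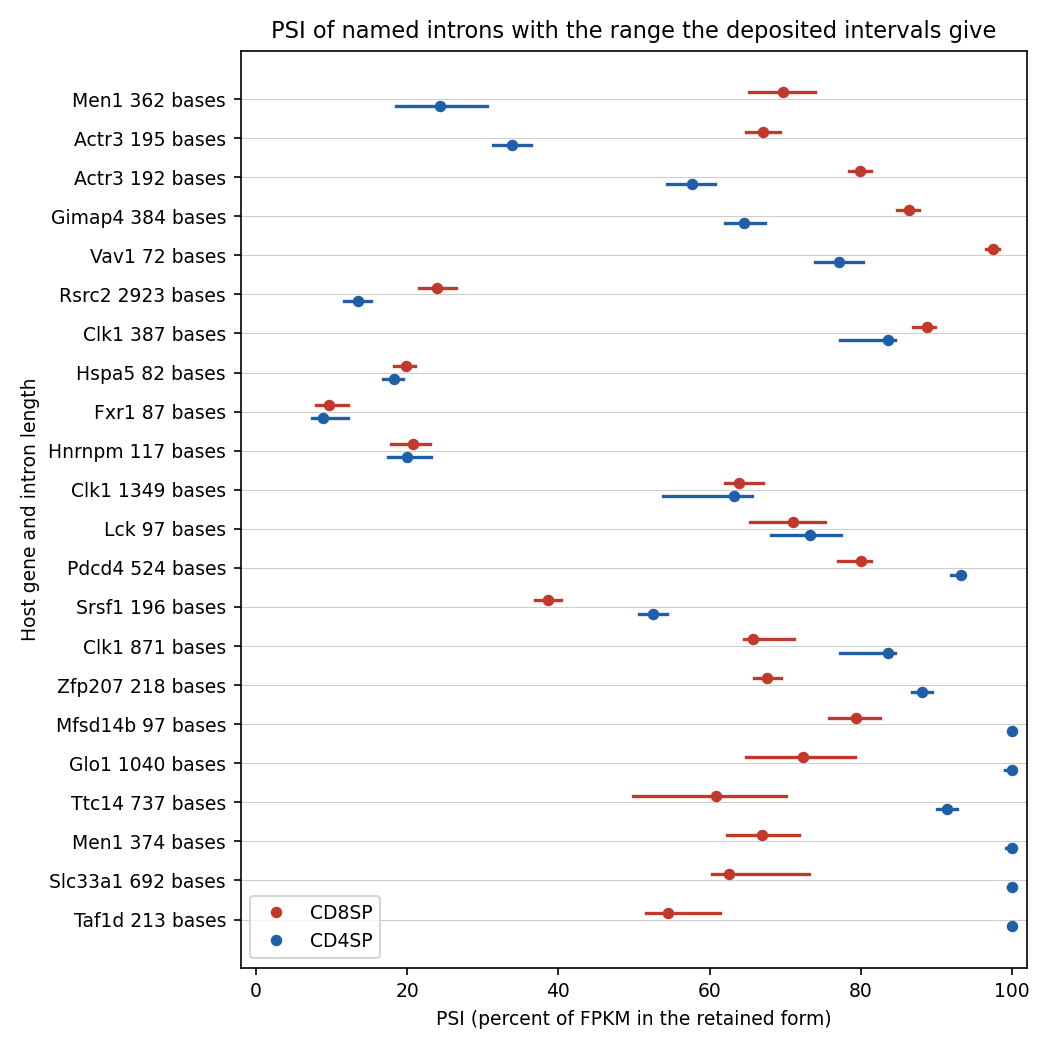
PSI (x axis, percent) of 22 named introns, with CD8SP in red above CD4SP in blue for each host gene and intron length. Points are the pooled values, bars the range that the deposited FPKM intervals give, and introns are sorted by the difference, with Men1 (362 bases) at the top and Taf1d at the bottom. The Clk1 (1349 bases), Fxr1, Hnrnpm, Hspa5 and Lck ranges overlap between lineages.

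The calls were picked by a PSI difference built from these 2 forms, so the following describes them and tests nothing. Among the 19 calls towards CD8SP, the median log2 ratio was 0.99 for the retained and -1.36 for the spliced form, and the forms went opposite ways in 17. The retained form changed more in 8 of them and the spliced form in 11, and in 5 the spliced form was listed at 0 in CD8SP. Among the 14 calls towards CD4SP, the retained form had a median log2 ratio of -0.10 and the spliced form one of 2.46. The spliced form changed more in 12 of the 14, and in 6 it was listed at 0 in CD4SP. Calls towards CD4SP had a median PSI of 59.3% in CD8SP and 96.4% in CD4SP, so the spliced form was mostly the smaller. The smaller form has the larger log2 ratio for the same change in FPKM. Calls towards CD8SP had a median PSI of 72.9% in CD8SP and 35.9% in CD4SP. The fitted ratios of forms at 0 depend on the 0.1 FPKM that was added. Among the introns with both forms above 0, 13 were called in CD8SP and 8 in CD4SP.

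**Figure D3:**
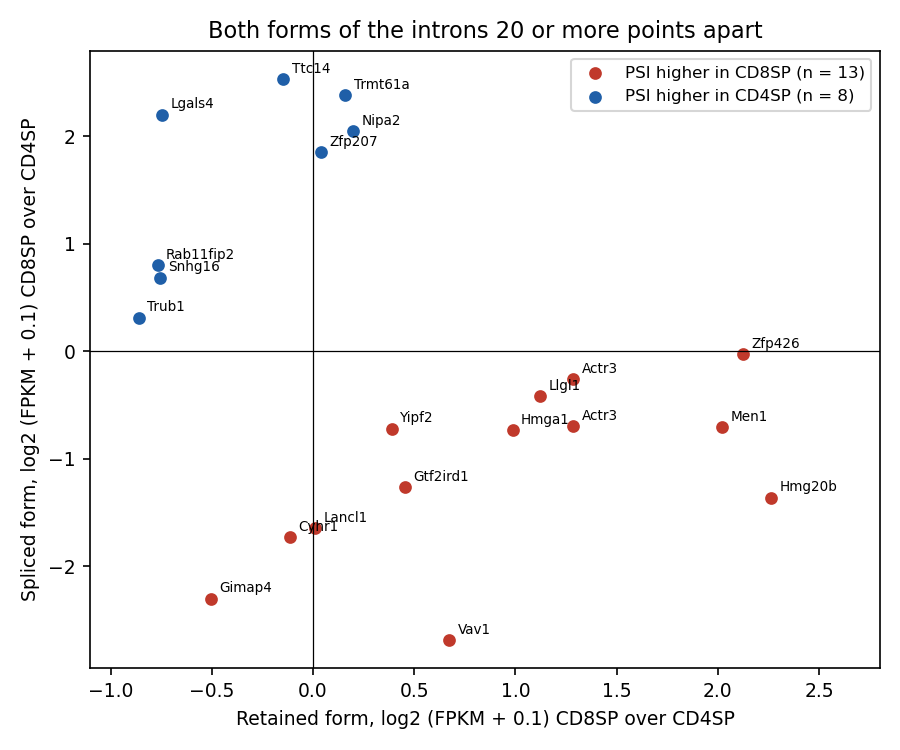
Log2 ratio of CD8SP over CD4SP, on FPKM + 0.1, for the retained form (x axis) and the spliced form (y axis) of the 21 called introns with both forms above 0 in both lineages. Red points have the higher PSI in CD8SP (n = 13) and blue points in CD4SP (n = 8), and labels give the host gene. Vav1 and Gimap4 lie lowest, with large drops of the spliced form, and Ttc14 lies highest.

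Among abundant calls with a form at 0, the 4 highest were all higher in CD4SP. Each of these genes listed its spliced form at 0 in CD4SP, so that PSI there was 100%. Taf1d (chr9:15311696-15311908, plus strand), a subunit of the RNA polymerase I selectivity factor and a host of small nucleolar RNAs, had 7.71 FPKM retained and 6.46 FPKM spliced in CD8SP, against 9.59 FPKM retained in CD4SP, and its PSI in CD8SP was 54.4%. Mfsd14b, a transporter of the major facilitator family, had a PSI of 79.3% in CD8SP from 11.7 FPKM retained and 3.05 FPKM spliced, against 11.2 FPKM retained in CD4SP. Slc33a1, the acetyl-CoA transporter of the endoplasmic reticulum, stood at 62.6% in CD8SP, with 3.69 FPKM retained and 2.21 FPKM spliced, against 4.36 FPKM retained in CD4SP. Glo1, which detoxifies methylglyoxal, stood at 72.3% in CD8SP, with 3.24 FPKM retained and 1.24 FPKM spliced, against 3.37 FPKM retained in CD4SP. The retained form of these 4 genes had log2 ratios of CD8SP over CD4SP between -0.31 and 0.06. With RefSeq transcripts only, Taf1d, Mfsd14b and Slc33a1 were at 100% in both lineages, while Glo1 was at 68.7% in CD8SP and 100% in CD4SP. Taf1d, when every overlapping intron counted as spliced, was at 30.1% in CD8SP and 46.8% in CD4SP, short of a call.

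The remaining 21 calls were of low abundance, 3 of them in the ribosomal protein genes below, and apart from those and Hmga1 they were chosen for print after their values were seen. Higher in CD8SP were the 83-base intron of the HMG-box gene Hmg20b, at 72.9% in CD8SP and 11.3% in CD4SP, and the zinc finger gene Zfp426, at 57.6% in CD8SP and 21.8% in CD4SP. Zfp426 was, on RefSeq transcripts only, at 70.1% in CD8SP and 100% in CD4SP, the opposite direction, though its 0.769 FPKM in CD4SP is under the minimum. The architectural chromatin protein Hmga1 was at 69.6% in CD8SP and 35.9% in CD4SP. Hmga1 fell short of a call when every overlapping intron counted as spliced, at 11.6% in CD8SP and 9.09% in CD4SP, and so did Hmg20b at 20.2% in CD8SP and 3.57% in CD4SP. The polarity gene Llgl1, whose 87-base intron is coding, was at 67.0% in CD8SP and 40.0% in CD4SP. These 4 introns had between 1.11 and 6.403 FPKM of both forms together. A further 4 introns had no spliced FPKM in CD8SP and so a PSI of 100% there. Against that, the 17-base gap in Ubald2 was at 18.2% in CD4SP and the ankyrin repeat gene Ankrd55 at 40.4%. Ager, the receptor for advanced glycation end products, was at 50.5% in CD4SP, and the zinc finger gene Zfp169 at 72.4%. The Zfp169 difference was 15.5 points with every overlapping intron counted as spliced.

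Another 4 were between 20 and 30 points higher in CD8SP. Lancl1 was at 65.0% in CD8SP and 35.3% in CD4SP. Gtf2ird1, a transcription factor related to TFII-I, was at 53.7% in CD8SP and 24.3% in CD4SP. Cyhr1 was at 76.0% in CD8SP and 47.0% in CD4SP, and the 138-base intron of Yipf2, a Golgi membrane protein, was at 57.5% in CD8SP and 36.4% in CD4SP. Cyhr1 turned round when every overlapping intron counted as spliced, to 38.9% in CD8SP and 41.0% in CD4SP, and the differences of Lancl1 and Yipf2 fell short of a call. Gtf2ird1 kept its call there, at 33.3 points.

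Higher in CD4SP was the 823-base intron of Nipa2, a magnesium transporter gene, at 47.4% in CD8SP and 78.0% in CD4SP. Its direction turned round under both other counts: it was at 100% in CD8SP and 78.0% in CD4SP on RefSeq transcripts only, and at 31.8% in CD8SP and 27.2% in CD4SP with every overlapping intron counted as spliced. Snhg16, a non-coding RNA that hosts small nucleolar RNAs, was at 30.6% in CD8SP and 56.2% in CD4SP. Trmt61a, a tRNA methyltransferase subunit, was at 74.4% in CD8SP and 97.5% in CD4SP. These 3 span a 5′ UTR, a non-coding transcript and a 5′ UTR. Rab11fip2, an effector of the Rab11 GTPase, was at 57.8% in CD8SP and 81.8% in CD4SP. Trub1, a pseudouridine synthase, was at 40.1% in CD8SP and 61.7% in CD4SP. The 14-base gap in Lgals4, a galectin gene, was at 51.2% in CD8SP and 95.4% in CD4SP. Each of these 6 introns had a summed FPKM under 7 in both lineages. With every overlapping intron counted as spliced, Snhg16 (-15.6 points), Trmt61a (-5.00 points), Rab11fip2 (-10.4 points) and Trub1 (-19.1 points) were no longer called, and Lgals4 was.

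Calls were unevenly placed along the transcript. Of 70 introns retained in the first exon of the retaining transcript, 28.6% were called, of which 15 were higher in CD8SP and 5 in CD4SP. Of 94 retained in a last exon 12.8% were called, of which 3 were higher in CD8SP and 9 in CD4SP. None of the 36 retained in an internal exon was called, and their median absolute difference was 4.09 points, against 10.6 points for the first exons and 6.71 points for the last exons. The remaining intron, in Gimap4, is internal in one RefSeq transcript and last in another. Counting differences of any size, the median for first exons was 1.44 points and that for internal and last exons 0 points. The retaining exon shared both outer ends with the exons of a transcript that removes the intron in 156 cases, and 22 of those were called. The other 11 calls, among them those of Zfp207, Ttc14, Taf1d, Hmga1 and both Men1 introns, lack shared ends. There a different start or end of the exon was not told apart from retention. Counted on RefSeq transcripts only, 14 and 7 of 55 first-exon introns were called towards CD8SP and CD4SP, with 6 and 6 of 79 in last exons and 0 and 2 of 34 in internal exons. With every overlapping intron counted as spliced, the counts were 11 and 2 of 70 in first exons, 6 and 5 of 94 in last exons and 2 and 1 of 36 in internal exons. First exons thus had the highest share under both, while the lean of last exons to CD4SP did not hold. First-exon introns were also less often abundant. In first exons 25 of 70 reached 5 FPKM in both lineages, against 24 of 36 in internal and 50 of 94 in last exons. At that minimum 20% of the first-exon introns, 6% of the last-exon introns and none of the internal ones were called. Place and abundance were not separated.

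By annotation, in 5′ UTRs 26.3% of introns were called, with 11 towards CD8SP and 4 towards CD4SP, and in coding sequence 10.7%, with 6 towards CD8SP and 5 towards CD4SP. In 3′ UTRs 12.5% were called, none higher in CD8SP and 3 higher in CD4SP, and the median difference there was -3.40 points. On RefSeq transcripts only, 36.96% were called in 5′ UTRs, 17.58% in coding sequence and 10% in 3′ UTRs. With every overlapping intron counted as spliced, the shares were 14.04%, 11.65% and 12.5%, so the higher share of 5′ UTRs nearly vanished. The lean of 3′ UTRs to CD4SP held under that count, with 0 and 3 of 24 called towards CD8SP and CD4SP. It did not hold on RefSeq transcripts only, with 1 and 1 of 20. Coding introns with a stop and those that keep the frame had close shares, 9.59% of 73 and 8.33% of 24. Introns called higher in CD8SP had a median length of 195 bases and a median GC content of 60.2%, and those called higher in CD4SP had medians of 507.5 bases and 43.3%. The 5′ UTR introns as a whole had a median GC content of 62.2% and the 3′ UTR introns one of 43.8%, so length, GC content and place moved together.

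**Figure D4:**
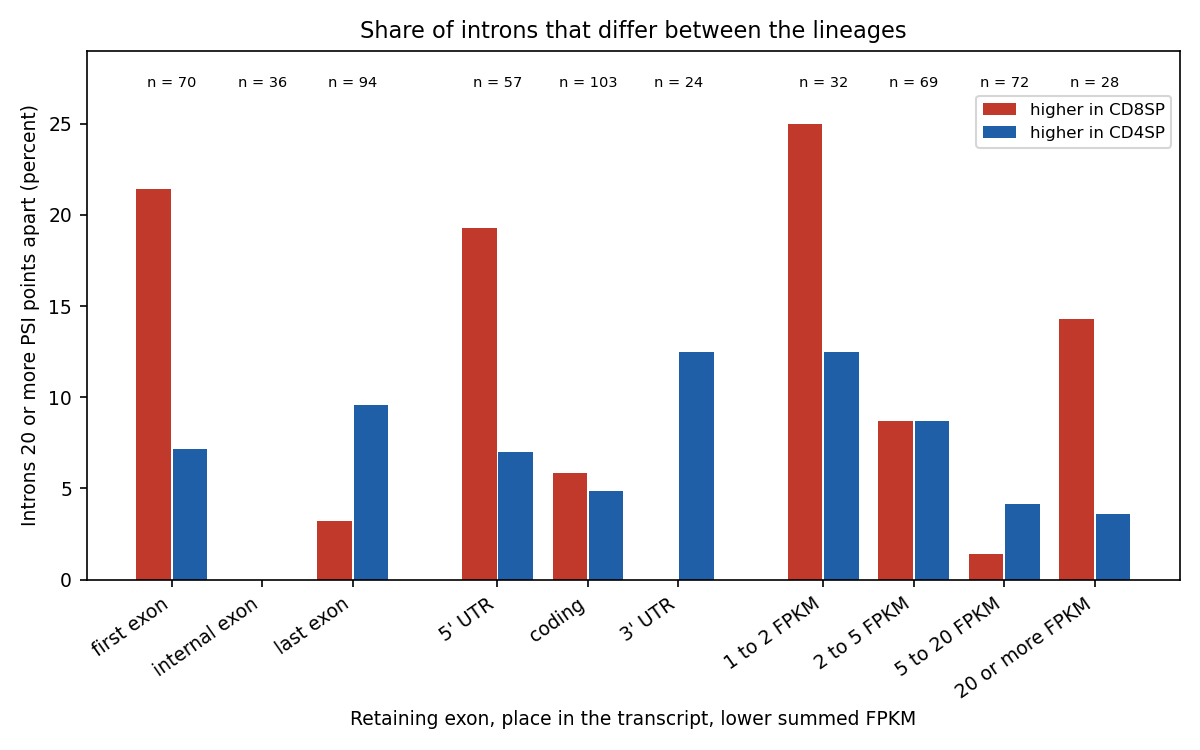
Percent of introns 20 or more PSI points higher in CD8SP (red, left bars) and in CD4SP (blue, right bars), by the exon of the retaining transcript, by place in the transcript and by the lower of the 2 summed FPKM values. The number of introns stands above each pair. No intron in an internal exon was called, and among the FPKM classes the share is highest between 1 and 2 FPKM.

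Several highly expressed introns differed little between the lineages. The lowest PSI values at 20 FPKM or more belonged to Fxr1, Hnrnpm, Hspa5 and Rsrc2. Fxr1, an RNA-binding protein of the fragile X family, had its 87-base frame-keeping intron at 9.71% (7.96 to 12.2) in CD8SP and 8.89% (7.38 to 12.3) in CD4SP, with 20.8 FPKM spliced in CD8SP and 19.7 FPKM in CD4SP. Hnrnpm, an hnRNP splicing regulator, had its 117-base intron at 20.8% (17.9 to 23.1) in CD8SP and 19.97% (17.5 to 23.2) in CD4SP. The ranges of both genes overlapped between the lineages.

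Hspa5, the endoplasmic reticulum chaperone BiP, had its 82-base 5′ UTR intron (chr2:34772147-34772228, plus strand) at 19.8% (18.3 to 21.0) in CD8SP and 18.3% (16.8 to 19.5) in CD4SP. Its spliced form was at 65.5 FPKM in CD8SP and 50.1 FPKM in CD4SP. The 2923-base intron of Rsrc2, a protein rich in arginine and serine, lies at chr5:123733636-123736558 on the minus strand. It was at 24.02% (21.6 to 26.5) in CD8SP and 13.5% (11.7 to 15.3) in CD4SP. Rsrc2 is thus the 1 of these 4 whose ranges did not overlap, though its 10.6 points fall short of a call. Its direction turned round on RefSeq transcripts only, to 4.05% in CD8SP and 13.5% in CD4SP.

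At the high end, among introns with both forms above 0 in both lineages, stood Vav1, Clk1, Pdcd4 and Zfp207. Without that condition, introns with no spliced FPKM in CD8SP such as those of Tap1 and H2-D1 were higher. Clk1, a kinase that phosphorylates SR proteins, is known to keep a pool of transcripts with introns on either side of its exon 4 in the nucleus. Its 387-base intron at chr1:58419734-58420120 on the minus strand had 53.1 FPKM retained and 6.79 FPKM spliced in CD8SP, against 56.2 and 11.1 FPKM in CD4SP. PSI was 88.7% (86.9 to 89.8) in CD8SP and 83.6% (77.2 to 84.4) in CD4SP. The 871-base intron on the other side of the exon was at 65.7% (64.5 to 71.2) in CD8SP and 83.6% (77.2 to 84.4) in CD4SP, 17.9 points lower in CD8SP. In CD4SP the same FPKM sums enter both introns, so their equal values there are not independent. The 1349-base intron, whose removal skips the exon, was at 63.9% in CD8SP and 63.2% in CD4SP. On RefSeq transcripts only, the 871-base intron was at 85.3% in CD8SP and 78.9% in CD4SP, and the direction turned round.

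Pdcd4, an inhibitor of translation initiation, had its 524-base 3′ UTR intron (chr19:53929193-53929716, plus strand) at 79.9% (77.0 to 81.3) in CD8SP and 93.2% (91.9 to 93.6) in CD4SP. The retained form was at 60.7 FPKM in CD8SP and 54.0 FPKM in CD4SP, and the spliced form at 15.2 FPKM in CD8SP and 3.93 FPKM in CD4SP. The spliced form was the one that differed, as in Zfp207.

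Of 107 splicing regulators in the list used, 6 hosted 11 of the introns, and none was called in either direction. Over all 201 introns 16.4% were called. With so few introns, 5 of them in Tardbp, the lack of calls does not set the list apart. The 1029-base intron of Tardbp (14.03 points) and that of Srsf1 (-13.9 points) came closest. Srsf1 is the SR protein that founded the family. Its 196-base intron at chr11:88049216-88049411 on the plus strand had 25.2 FPKM retained and 40.0 FPKM spliced in CD8SP, against 26.9 and 24.2 FPKM in CD4SP. PSI was 38.6% (37.0 to 40.4) in CD8SP and 52.6% (50.7 to 54.4) in CD4SP, and on RefSeq transcripts only 40.1% in CD8SP and 52.6% in CD4SP. The 5 introns of Tardbp, the RNA-binding protein TDP-43 that is known to limit its own mRNA through its last exon, lay between 92.6% and 100% in CD8SP and between 86.0% and 100% in CD4SP. All 5 were at 100% in both lineages on RefSeq transcripts only. The 986-base intron of Luc7l, a U1 snRNP-associated protein, was at 86.2% in CD8SP and 87.4% in CD4SP, and on RefSeq transcripts only at 68.7% in CD8SP and 58.1% in CD4SP. Celf2, which regulates splicing in T cells, had 2 introns in its 3′ UTR, at 18.2% and 60.1% in CD8SP and at 15.5% and 61.9% in CD4SP. The first was lower in CD8SP on RefSeq transcripts only, at 7.38% in CD8SP and 16.1% in CD4SP.

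Of 88 genes of T cell receptor signalling, 4 hosted 1 intron each, and only that of Vav1 was called. With 16.4% called over all 201 introns, 1 call in 4 does not set the list apart. Lck, the kinase that starts the signal, had its 97-base intron (chr4:129558191-129558287, minus strand) at 71.0% (65.3 to 75.2) in CD8SP and 73.3% (68.1 to 77.4) in CD4SP. It held 21.7 FPKM retained and 8.85 FPKM spliced in CD8SP, against 22.6 and 8.22 FPKM in CD4SP, levels that were alike in both forms. The lipid phosphatase SHIP1, encoded by Inpp5d, had its 183-base frame-keeping intron at 56.4% (53.4 to 59.6) in CD8SP and 54.1% (49.9 to 58.3) in CD4SP. Ikbkb, the kinase IKKβ of the NF-κB pathway, was at 15.5% in CD8SP and 13.3% in CD4SP. On RefSeq transcripts only, the spliced Lck form was at 0 in CD8SP, and PSI was 100% in CD8SP and 67.5% in CD4SP. It was 16.1% in CD8SP and 22.6% in CD4SP when every overlapping intron counted as spliced.

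Of 103 ribosomal protein and translation factor genes, 3 hosted 4 introns, all at the first exon and all of low FPKM for genes of this kind. Rps27a, a ubiquitin fusion, had 1.93 FPKM retained and 1.79 FPKM spliced in CD8SP, against no retained and 3.34 FPKM spliced in CD4SP, so PSI was 52.0% in CD8SP and 0% in CD4SP. None of its FPKM came from RefSeq transcripts. Rpl31 had a 214-base intron at 100% in CD8SP and 29.2% in CD4SP and a 142-base intron with the same 3′ site at 46.2% in CD8SP and 100% in CD4SP. With any overlapping intron counted as spliced, both Rpl31 introns were 15.3 points higher in CD8SP. Rpl30 was at 56.4% (51.3 to 60.6) in CD8SP and 51.2% (40.8 to 61.2) in CD4SP. It passed 20 points on RefSeq transcripts only, at 100% in CD8SP and 51.2% in CD4SP. Ribosomal protein genes have many processed copies with near-identical sequence, so their FPKM is uncertain.

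Of 32 genes of MHC class I presentation, 4 hosted 5 introns, none of them called. With 16.4% called over all 201 introns, no call in 5 does not set the list apart. Tap1, a subunit of the peptide transporter, had its 84-base frame-keeping intron at 100% in CD8SP and 95.5% (93.9 to 96.2) in CD4SP, with 38.01 FPKM retained in CD8SP and 27.4 FPKM in CD4SP. The class I gene H2-T22 was at 86.4% (83.8 to 88.4) in CD8SP and 76.0% (71.6 to 79.4) in CD4SP, and reads of class I genes can be shared between near-identical copies. With every overlapping intron counted as spliced, 3 of the 5 passed 20 points towards CD8SP: H2-T22 was at 62.9% in CD8SP and 37.2% in CD4SP, and both H2-T10 gaps were at 100% in CD8SP and 24.6% in CD4SP. The actin list of 57 genes was represented by Actr3 alone, and the 45 lymphoid transcription factors and chromatin organisers by Men1 alone. No intron of the set lay in the 33 genes of RNA decay, the 48 of ubiquitin conjugation or the 57 of the respiratory chain, and 146 of the 166 host genes were in no list.

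In the frame-keeping introns the retained form adds residues to the protein. The 24 introns in 23 genes had a median PSI of 62.5% in CD8SP and 66.5% in CD4SP. An internal exon retained 17 of the 24. Their median absolute difference was 4.43 points, and 2 were called, those of Vav1 and Gimap4. In Skil, a repressor of TGF-β signalling, the 240-base intron was at 100% in both lineages. Csnk1g2, a casein kinase, was at 31.0% in CD8SP and 35.6% in CD4SP, and Bcl2l11, the pro-apoptotic BH3 protein Bim, was at 61.4% in CD8SP and 70.1% in CD4SP. The direction of Bcl2l11 turned round under both other counts, to 86.7% in CD8SP and 67.6% in CD4SP on RefSeq transcripts only, and to 58.9% in CD8SP and 53.9% in CD4SP with every overlapping intron counted as spliced. The histone acetyltransferase Kat5 was at 10.2% in CD8SP and 6.89% in CD4SP, and on RefSeq transcripts only at 0% in CD8SP and 6.75% in CD4SP. Coding introns with a stop had a median PSI of 65.7% in CD8SP and 72.4% in CD4SP, no lower than the frame-keeping introns in either lineage. An internal exon retained only 9 of these 73, so the classes also differ in place. An effect of decay on PSI was not tested.

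The genes themselves were mostly level. Of the 166 host genes, 153 had an FPKM of 1 or more in either lineage, and 11.1% of them were 2-fold apart or more (5.88% higher in CD8SP, 5.23% higher in CD4SP). Of all 8320 genes 20.8% were (15.2% higher in CD8SP, 5.55% higher in CD4SP). These shares are not like for like. The host genes entered through introns at 1 FPKM or more in both lineages, the 8320 genes through 1 FPKM in either. The rule thus favoured genes expressed in both lineages, and the lower share is not read as a trait of the host genes. For the host genes the log2 ratio of CD8SP over CD4SP had a median of 0.30, and for all genes it was 0.31. In bulk samples, fewer cells of a type and less RNA per cell cannot be told apart.

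At the edge of the FPKM minimum, the introns just inside were those of Hmga1, with 1.27 FPKM of both forms in CD8SP and 1.11 FPKM in CD4SP, and the 148-base intron of Yipf2, with PSI of 49.4% in CD8SP and 62.8% in CD4SP. Just outside were Abhd14a, with 0.958 FPKM retained in CD8SP and 0.678 FPKM in CD4SP, and Cacfd1, with 0.953 FPKM in CD8SP and 1.19 FPKM in CD4SP.

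The long reads gave a separate readout by gene. Of the 166 host genes, 56 had a long-read isoform in CD8SP and 49 in CD4SP. Intron-retention isoforms, as the deposited classification names them, made up 24 of 119 host gene isoforms in CD8SP (20.2%) and 15 of 95 in CD4SP (15.8%). Of these, 11 in CD8SP and 10 in CD4SP had more than 1 exon, so the excess in CD8SP lay in isoforms of a single exon. Among all sense isoforms the shares were 17.4% in CD8SP and 18.7% in CD4SP. There was 1 library per lineage, each isoform counts once whatever its abundance, and the tables do not say which intron is kept.

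Retention isoforms were found in 17 host genes in all. In 6 of them both libraries had one, in 8 CD8SP alone and in 3 CD4SP alone. Of host genes with isoforms, 14 of 56 in CD8SP and 9 of 49 in CD4SP had one. Over all genes it was 660 of 3602 in CD8SP and 633 of 3031 in CD4SP. The CD8SP catalogue was the larger, with 6834 sense isoforms against 5799 in CD4SP, so more genes in CD8SP alone is not read as a lineage difference. The overlap over all genes is not given here. Clk1 had 4 of 7 isoforms with retention in CD8SP and 4 of 5 in CD4SP, and Lck had 3 of 7 in CD8SP and 1 of 5 in CD4SP. Tbrg4, a mitochondrial RNA-binding protein, had 3 of 5 in CD8SP and 3 of 6 in CD4SP, and Zfp207 had 3 of 6 in CD8SP and 2 of 4 in CD4SP. Vav1 had 1 of 3 in CD8SP, of a single exon, and 0 of 1 in CD4SP. Men1, Gimap4, Ttc14 and Srsf1 had no long-read isoform in either library, and Actr3 had 2 in CD8SP, neither with retention, and none in CD4SP.

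**Figure D5:**
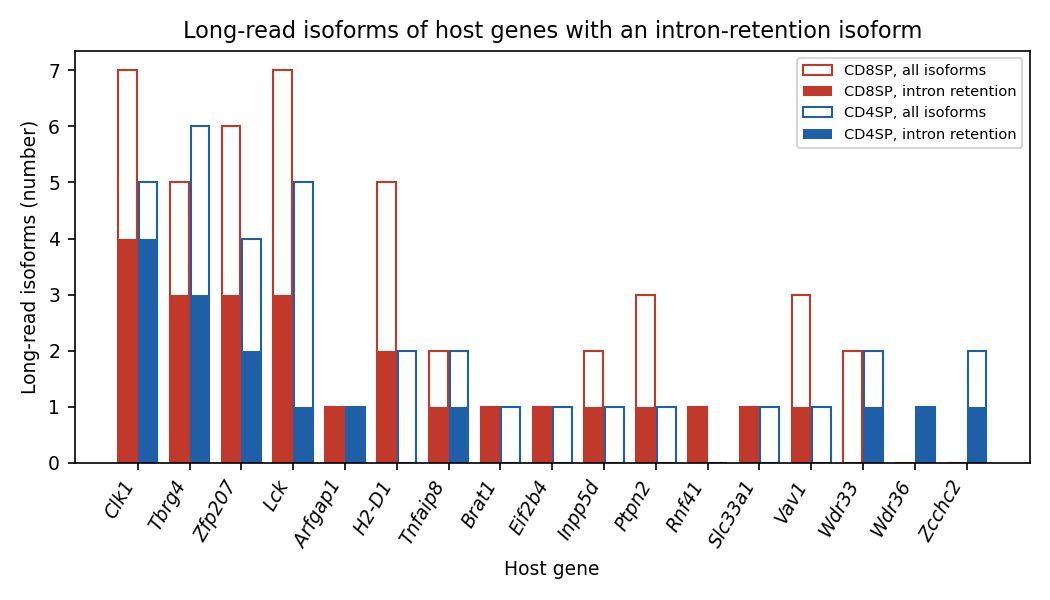
Number of long-read isoforms (y axis) in the 17 host genes with an intron-retention isoform in either library, CD8SP in red on the left and CD4SP in blue on the right. Open bars are all isoforms of the gene and filled bars those classed as intron retention. Clk1 carries 4 such isoforms in each library and is the highest.

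The cells carried the lineage markers of their labels. The 5 CD4 lineage markers summed to 20.2 FPKM in CD8SP and 286 FPKM in CD4SP, and the 9 CD8 lineage markers to 954 FPKM in CD8SP and 55.5 FPKM in CD4SP. All 9 were higher in CD8SP and all 5 were higher in CD4SP. Immature thymocyte markers summed to 24.2 FPKM in CD8SP and 37.2 FPKM in CD4SP, and all 6 were higher in CD4SP. Among them Rag1 was at 4.12 FPKM in CD8SP and 12.5 FPKM in CD4SP. Cd24a was at 10.1 FPKM in CD8SP and 11.8 FPKM in CD4SP, though the cells were sorted as CD24-. Markers of B cells summed to 4.60 FPKM in CD8SP and 0.633 FPKM in CD4SP. Markers of myeloid and dendritic cells summed to 4.60 FPKM in CD8SP and 9.09 FPKM in CD4SP, and those of erythroid and stromal cells to 18.7 FPKM in CD8SP and 21.4 FPKM in CD4SP. Of the B cell list only Cd79b passed 1 FPKM in either lineage, and Cd79a and Pax5 were at 0 in both. The part of these cells in the PSI values was not tested.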

How the data were processed

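Mature CD8SP and CD4SP thymocytes were profiled in 4 short-read samples and 1 long-read library per lineage. Per the file headers, Cufflinks wrote the deposited short-read files, which give each RefSeq or assembled transcript an FPKM and an interval, with the 4 lanes of a lineage merged. The deposited long-read files list classified isoforms; their read count columns are empty, so isoforms were counted once. Tools named in the submitters' processing notes, without roles, include Cufflinks 2.1.1, TopHat2 2.0.14 and RSEM 1.3.1, beside Trimmomatic, FastQC and GSNAP, and the build GRCm38. Depth is not given in the sources used.

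RefSeq transcripts were matched to symbols through the GRCm38.p6 gene table (30004 of 30589). Both forms were sums of FPKM over stranded transcripts of more than 1 exon, the spliced form needing exactly the intron. A further 3 introns held only by a RefSeq transcript of 1 exon were left out. A PSI range pairs the lowest retained with the highest spliced FPKM of the deposited intervals, and the reverse. Of RefSeq transcripts above 0, 11.3% in CD8SP and 10.3% in CD4SP lie outside their own interval, so the ranges are an incomplete measure of error. Sequence, place and reading frame come from GENCODE M21 transcripts whose exon holds the intron, and were read for 193 of the 201. The event rule was tested on simulated transcripts. Python 3.11.15, NumPy 2.4.6 and matplotlib 3.10.9 were used.

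The introns, gene lists and marker lists were chosen with earlier results of these data known. Named were up to 8 called introns per direction with both forms above 0 and 5 FPKM or more in both lineages (1 per gene), up to 6 per gene list, the 4 highest and 4 lowest in PSI at 20 FPKM or more with both forms above 0 in both lineages (1 per gene), 2 on each side of the FPKM minimum, the 4 most abundant calls with a form at 0, and Actr3, Men1 and Vav1. Tap1, Skil, Csnk1g2, Bcl2l11, Kat5, Xbp1, Celf2 and the remaining calls were added after their values were seen. Annotated cassette exons and all retained introns served as background; alternative splice sites were not compared.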

Additional observations from a re-analysis of the deposited data

How the results depend on the processing

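The counts of calls, the medians and the differences of named introns were recomputed under 15 other settings as far as each applies, of which 2 (any overlapping intron as the spliced form, and introns under 60 bases left out) were chosen after seeing the data. No paired analysis was possible because each lineage has 1 pooled value and no replicate columns. Replicates could not be left out for the same reason. The count of calls in CD8SP and CD4SP was 5 and 4 of 100 introns (9%) at a minimum of 5 FPKM, and 36 and 35 of 280 (25.4%) with no minimum. It was 44 and 39 (41.3%) at a threshold of 10 points, and 10 and 7 (8.46%) at 30 points. It was 11 and 8 where no transcript lay outside its interval. The CD4SP count alone moved, to 8, where outer exon ends were shared, where both forms were above 0 and where any overlapping intron counted as spliced. The median PSI was 70.3% in CD8SP and 75.4% in CD4SP with RefSeq transcripts only, 56.7% and 55.00% where both forms were above 0, and 50.8% and 44.9% with any overlapping intron. The median difference was -0.33 points where both forms were above 0 and 0.76 points with any overlapping intron. Of the introns named by rule and called, those that turned round were Vav1 (-4.15 points) and Ttc14 (0.28 points) with RefSeq transcripts only, and the Men1 intron of 374 bases (27.5 points) and the Rpl31 intron of 142 bases (15.3 points) with any overlapping intron. For the last pair the setting adds the overlapping splice site to the spliced form by construction, and for Vav1 and Ttc14 it leaves out assembled transcripts; no further cause was tested. Of the other 360 values of introns named by rule, 319 stayed within the range that the deposited intervals allow for the difference, and 41 lay outside it. Of the 360, 10 lost a call, 6 gained one and 8 took the opposite sign without having been called, those of Clk1 (871 and 1349 bases), Luc7l, Lck, Rsrc2, Ikbkb and Yipf2 (148 bases). The range of Hmga1 is so wide that its lost call lies within it. Outside the naming rule, Nipa2, Cyhr1, Zfp426, Bcl2l11, Kat5 and Celf2 were among those that turned round. Of first, internal and last exons, first exons had the highest share of calls under all 15 settings, counted among the introns described here. These settings are not independent. With no FPKM minimum the counts by exon repeat the main ones by construction, and several other settings keep a part of the same calls. The counts by form moved and the splice site matches were not recomputed. The lack of replicates and of read counts limits every comparison here.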
